A study of Mus musculus with 10 samples.

Results

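Transcripts of 10 genes of tumour necrosis factor (TNF) and death receptor signalling were followed in the retina of albino mice after damage by intense light. The genes were taken by symbol from the deposited table of 54532 genes: the ligand Tnf, the receptors Tnfrsf1a, Tnfrsf1b, Tnfrsf12a, Tnfrsf10b and Fas, and the intracellular genes Fadd, Daxx, Casp8 and Cflar. All mice were BALB/c, a strain without pigment in the eye, 2 months old, and were kept for 12 h in darkness before exposure. Normal light (NL) of 200 lux gave 5 retinas and light damage (LD) at 15000 lux gave 5, each lasting 1 day, and the retinas are named NL-1, NL-4, NL-5, NL-7, NL-8 and LD-1, LD-4, LD-6, LD-7, LD-8 as in the labels. Whole retinas were sequenced as bulk RNA, without a separation of cell types. The study calls the 5 of each group biological replicates, but the labels do not say whether 1 retina stands for 1 mouse. The p-values therefore weigh a difference between groups against the spread between these retinas.

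TNF is a cytokine made as a membrane protein, mainly by macrophages and microglia, and released by the protease encoded by Adam17. It binds the receptors encoded by Tnfrsf1a, which carries an intracellular death domain, and Tnfrsf1b, which does not. Fas, Tnfrsf10b and, through the adaptor TRADD, Tnfrsf1a recruit FADD, which in turn binds procaspase-8, and the Cflar protein, a caspase-8 relative without protease activity, competes for this complex. In the retina this pathway is known as a route by which inflammatory signals can reach photoreceptors, while the same receptors also drive NF-kappaB and survival genes.

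The gene reads of a retina summed to between 18965090 (LD-4) and 26832535 (NL-8). Levels are given in FPKM, reads scaled to gene length and library size, and the reads behind a value were recovered from its steps. In 3 same-group pairs the reads were closer than in the other 17, with a chi-square per gene of 2.52 for LD-4 with LD-6, 2.71 for NL-5 with NL-7 and 3.41 for LD-1 with LD-7, against 10.9 to 38.5. Since a value of 1 would be counting noise alone, all 10 retinas were kept as separate samples, and a result is also given with these pairs averaged where that changed its call. Changed means an adjusted p under 0.01 and more than 2-fold in limma, with Benjamini-Hochberg adjustment over the 24508 genes tested.

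Of the 10 genes, 7 were changed and higher in LD, namely Tnf, Tnfrsf1a, Tnfrsf1b, Tnfrsf12a, Fas, Daxx and Casp8. The background of genes changed and higher was 4.13% of all genes tested. None was changed and lower, against a background of 2.37%. The same 7 genes had an adjusted p under 0.01 in the higher direction at any fold, where the background was 9.30%. All LD values lay above all NL values in 8 genes, the 7 named and Fadd, against 11.8% of all genes. The median log2 difference, LD minus NL on the log2(FPKM + 0.1) scale, was 1.71 over the 10 genes and -0.01 over all genes. Tnf entered the test through its LD values alone and so had to differ, and without it 6 of 9 genes were changed, 7 of 9 did not overlap and the median was 1.49.

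**Figure D1:**
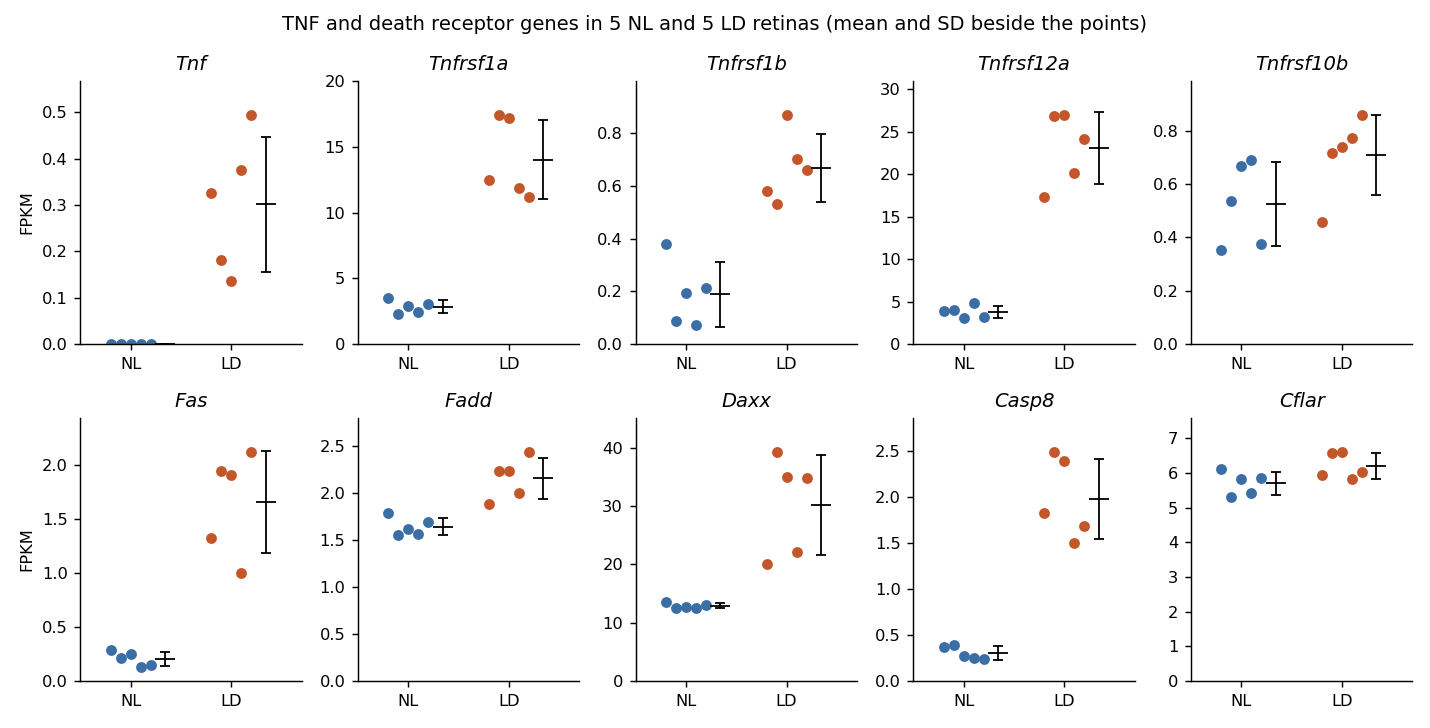
FPKM (vertical axis, from 0, one scale per gene) of the 10 genes in 5 NL (blue) and 5 LD (orange) retinas, each point 1 retina, in label order from left to right, with the mean and SD beside the points. The points of the groups are apart in 8 panels and overlap in those of Tnfrsf10b and Cflar.

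Tnf, the founding ligand of the family, went from no read in any NL retina to a low level in every LD retina. In LD it was at 0.325, 0.181, 0.136, 0.375 and 0.493 FPKM in LD-1, LD-4, LD-6, LD-7 and LD-8, from 13, 6, 5, 14 and 18 reads. The LD mean was 0.302 FPKM ± 0.146 (SD, n = 5). All 5 LD retinas were thus above NL, but by few reads, and the highest LD value was 3.62 times the lowest. Against the level that 3 reads would give in the NL retina where a read weighs most, the LD mean was at least 3.35-fold higher, a limit that covers counting error only. limma on log2(FPKM + 0.1) gave 1.93 ± 0.26 (SE) with an adjusted p of 3.10e-04, where the size depends on the added constant and is no bound: with 1 FPKM added it was 0.37, under the 2-fold limit. Tnf (ENSMUSG00000024401) lies on chromosome 17, bases 35199381 to 35202007 of GRCm38, minus strand, and all positions below are on the same build.

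Microglia and macrophages, the usual source of Tnf, were followed by 13 marker genes, of which 10 were changed and higher in LD and none was at 0. Their summed level ran from 34.9 to 54.6 FPKM in NL and from 74.2 to 168 FPKM in LD. The markers of resident microglia P2ry12 and Tmem119 were not changed, with log2 differences of -0.74 (adjusted p 0.122) and 0.22 (adjusted p 0.528). Among the LD retinas, this sum was 168, 109, 111, 149 and 74.2 FPKM in LD-1, LD-4, LD-6, LD-7 and LD-8. Tnf was higher in LD-1 and LD-7, with 13 and 14 reads, than in LD-4 and LD-6, with 6 and 5, as was the sum. LD-8 departed from this, with the lowest sum and the highest Tnf level, from 18 reads. The part of these cells in the Tnf level was not tested. In bulk tissue a change in the number of cells of a type and a change in RNA per cell cannot be told apart, and this holds for each result below. Neutrophil markers were near 0, with sums of 0.477 to 0.964 FPKM in NL and 0.629 to 1.69 FPKM in LD, 0 of 3 tested changed and Elane at 0. The sums for T and NK cells were 0.260 to 0.349 and 0.206 to 0.689 FPKM, with 0 of 1 tested changed.

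Both receptors of TNF rose. Tnfrsf1a, the death domain receptor found on most cells, was at 3.54, 2.33, 2.89, 2.47 and 3.08 FPKM in NL-1, NL-4, NL-5, NL-7 and NL-8. In LD it was at 12.5, 17.4, 17.2, 11.9 and 11.2 FPKM in LD-1, LD-4, LD-6, LD-7 and LD-8. The groups lay far apart, and within LD the pair LD-4 and LD-6 stood above the other 3 retinas. Its mean went from 2.86 ± 0.486 to 14.1 ± 3.02 FPKM (SD, n = 5 each), 4.91-fold. The log2 difference was 2.25 ± 0.15 (SE), with a 95% interval of 1.91 to 2.59 and a limma adjusted p of 3.17e-06. Tnfrsf1a (ENSMUSG00000030341) lies on chromosome 6, bases 125349362 to 125362484, plus strand.

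Tnfrsf1b, the TNF receptor without a death domain, typical of immune and endothelial cells, was a minor species beside it. It stood at 0.380, 0.0863, 0.194, 0.0740 and 0.213 FPKM in the NL retinas, in the order given, from 6 to 31 reads. The LD retinas had 0.580, 0.530, 0.866, 0.701 and 0.659 FPKM, from 41 to 74 reads. NL-1 was the highest NL retina and the lowest LD retina, LD-4, was still above it. The mean rose 3.52-fold, from 0.189 ± 0.123 to 0.667 ± 0.130 FPKM (SD, n = 5 each), with a log2 difference of 1.49 ± 0.28 (SE) and a limma adjusted p of 0.00283. With the close pairs averaged the log2 difference was 1.43 but the adjusted p was 0.0250, outside the threshold, and over all alternatives it ran from 8.58e-04 to 0.0458. With 1 FPKM added the log2 difference was 0.49, under the 2-fold limit. This gene (ENSMUSG00000028599) lies on chromosome 4, bases 145213463 to 145246870, minus strand.

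The balance between the TNF receptors did not shift beyond the spread. The ratio of Tnfrsf1b to Tnfrsf1a, both per length, was 0.0621 ± 0.0307 in NL and 0.0489 ± 0.0117 in LD (SD, n = 5 each). Its log2 difference of -0.23 had a two-sided exact permutation p of 0.563, also 0.563 after Benjamini-Hochberg adjustment over the 3 ratios compared.

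Tnfrsf12a, the receptor for the ligand TWEAK and known as an early injury gene in many tissues, rose as well. In the NL retinas it was at 3.95, 3.97, 3.08, 4.80 and 3.23 FPKM. In the LD retinas it was at 17.3, 26.8, 26.9, 20.1 and 24.1 FPKM. All LD values were above all NL values, with LD-1 lowest among them. The mean went from 3.81 ± 0.688 to 23.0 ± 4.22 FPKM (SD, n = 5 each), 6.05-fold, with a log2 difference of 2.56 ± 0.15 (SE), a 95% interval of 2.23 to 2.89 and a limma adjusted p of 1.07e-06. Its ligand gene Tnfsf12 moved the other way by less than 2-fold, from 29.8 ± 4.78 to 16.4 ± 4.07 FPKM, with a log2 difference of -0.87 ± 0.17 (SE) and an adjusted p of 0.00277. Tnfsf12 was named as the ligand of this receptor, outside the rule for naming genes. Tnfrsf12a (ENSMUSG00000023905) itself lies on chromosome 17, bases 23675445 to 23677468, minus strand.

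Fas, the receptor of FAS ligand, was close to the limit of detection in NL and rose 8.12-fold. Its NL values were 0.286, 0.209, 0.246, 0.131 and 0.151 FPKM, from 5 to 11 reads. Its LD values were 1.32, 1.94, 1.91, 1.00 and 2.12 FPKM, from 41 to 85 reads. The lowest LD retina, LD-7, was above the highest NL retina, NL-1. Means were 0.204 ± 0.0646 and 1.66 ± 0.476 FPKM (SD, n = 5 each), and the log2 difference was 2.51 ± 0.24 (SE) with a 95% interval of 1.98 to 3.04 and a limma adjusted p of 3.09e-05. The short RNA gene Gm27818 within Fas had at most 2 reads in a retina. FAS ligand itself, encoded by Fasl, had 22 reads in all 10 retinas together and did not reach the level at which genes were tested. Fasl was named as the ligand gene of this receptor, outside the rule for naming genes. Fas (ENSMUSG00000024778) spans chromosome 19, bases 34290659 to 34327770, plus strand.

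Tnfrsf10b, the mouse receptor that signals death for the ligand TRAIL, was the receptor among the 5 that was not changed. The NL retinas had 0.352, 0.535, 0.669, 0.691 and 0.377 FPKM. The LD retinas had 0.459, 0.715, 0.738, 0.773 and 0.857 FPKM. LD-1 lay inside the NL range, while the other 4 LD retinas were above NL-7, the highest of NL. The log2 difference of 0.39 ± 0.22 (SE) had a 95% interval of -0.10 to 0.88 and a limma adjusted p of 0.233, so that a rise of up to 0.88 is inside the interval. The TRAIL gene Tnfsf10, named here as its ligand and outside the naming rule, was at 0.226 ± 0.287 FPKM in NL and 0.706 ± 0.159 FPKM in LD, with a log2 difference of 1.60 ± 0.41 (SE) and an adjusted p of 0.0148, which missed the threshold. Tnfrsf10b (ENSMUSG00000022074) spans chromosome 14, bases 69767472 to 69784411, plus strand.

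**Figure D2:**
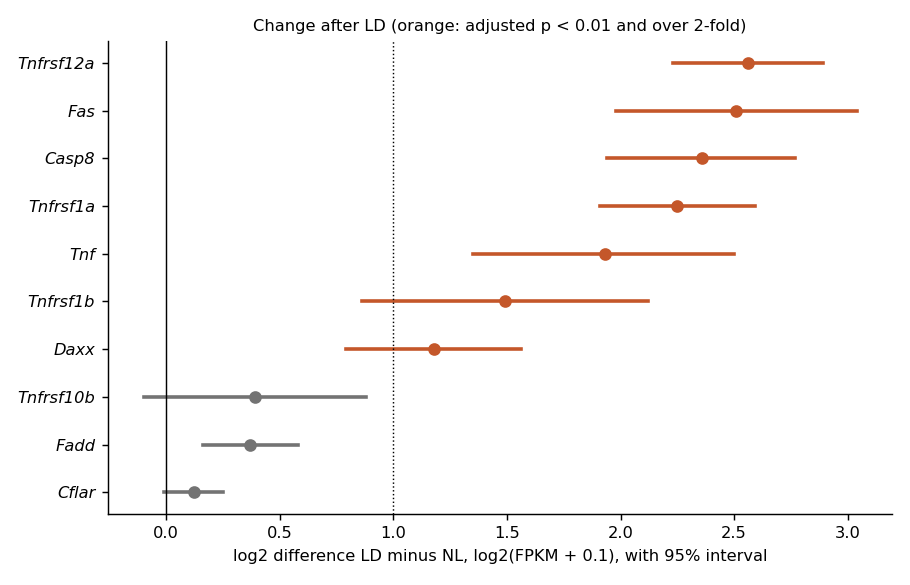
Log2 difference LD minus NL on the log2(FPKM + 0.1) scale (horizontal axis) of the 10 genes, sorted by size, with 95% intervals as bars and the 2-fold limit dotted. The 7 changed genes (orange) run from 1.18 for Daxx to 2.56 for Tnfrsf12a, and Tnfrsf10b, Fadd and Cflar (grey) from 0.12 to 0.39.

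The start sites of these genes were read for short motifs of transcription factors known from inflammation and stress. RefSeq windows on GRCm38.p6, 250 bases before to 50 bases after a start, were matched to 9 of the 10 genes, with 11 windows in all, and Tnfrsf10b had no window. Motifs were searched on both strands, after a first look at the windows. The interferon-stimulated response element (ISRE), as TTTCNNTTTC, was in 3.44% of all 32851 windows, and among the 9 genes in Tnfrsf1b and Cflar. The STAT site (GAS), as TTCNNNGAA, was in 8.30% of windows and in Tnfrsf1a, Tnfrsf1b and Fas. The AP-1 site, as TGANTCA, was in 7.81% of windows and in Fas. The GC box, as GGGCGG, was in 35.7% of windows and in Tnf, Tnfrsf1b, Tnfrsf12a, Fas, Fadd and Daxx. The cAMP response element TGACGTCA (1.79% of windows), the NF-kappaB site (4.51%) and the p53 motif (8.36%) had no match in these windows. No ISRE, GAS, AP-1, cAMP, NF-kappaB or p53 match was thus found in the windows of Casp8, Daxx, Fadd, Tnfrsf12a or Tnf, which says only that these letters are absent there. The Casp8 window, chr1:58802252-58802551, lies inside the deposited gene, which begins upstream at base 58795374, so the first bases of the deposited gene were not searched.

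The 4 windows with an ISRE, GAS or AP-1 match are shown 5′ to 3′ on the strand of the gene, with those matches in capitals, as 3 of these genes (Fas, Tnfrsf1a, Tnfrsf1b) rose and the other, Cflar, described below, did not. Fas lies at chr19:34290409-34290708 on the plus strand, with the AP-1 match 211 and the GAS match 93 bases before the start. Tnfrsf1a lies at chr6:125349473-125349772 on the plus strand, inside the deposited gene interval, with the GAS match 244 bases before the RefSeq start. Tnfrsf1b lies at chr4:145246821-145247120 on the minus strand, with the GAS match 181 and the ISRE match 10 bases before the start. Cflar lies at chr1:58711241-58711540 on the plus strand, with the ISRE match from 7 bases after the start.
Fas: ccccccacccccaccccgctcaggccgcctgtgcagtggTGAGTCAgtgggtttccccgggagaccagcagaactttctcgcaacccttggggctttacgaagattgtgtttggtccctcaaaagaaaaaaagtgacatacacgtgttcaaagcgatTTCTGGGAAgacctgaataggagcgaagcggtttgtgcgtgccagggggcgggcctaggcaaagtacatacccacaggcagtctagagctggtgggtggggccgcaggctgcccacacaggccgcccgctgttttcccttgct
Tnfrsf1a: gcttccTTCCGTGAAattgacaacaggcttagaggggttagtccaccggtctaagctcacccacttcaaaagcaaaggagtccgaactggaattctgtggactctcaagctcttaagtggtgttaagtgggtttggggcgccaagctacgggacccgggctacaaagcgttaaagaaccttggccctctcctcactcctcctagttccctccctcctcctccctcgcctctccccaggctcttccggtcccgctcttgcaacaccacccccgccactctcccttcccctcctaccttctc
Tnfrsf1b: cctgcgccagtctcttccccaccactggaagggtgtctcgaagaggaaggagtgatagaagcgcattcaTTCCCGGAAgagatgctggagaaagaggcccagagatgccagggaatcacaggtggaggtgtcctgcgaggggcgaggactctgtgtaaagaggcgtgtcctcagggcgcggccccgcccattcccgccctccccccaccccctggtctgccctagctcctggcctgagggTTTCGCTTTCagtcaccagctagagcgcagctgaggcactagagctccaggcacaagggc
Cflar: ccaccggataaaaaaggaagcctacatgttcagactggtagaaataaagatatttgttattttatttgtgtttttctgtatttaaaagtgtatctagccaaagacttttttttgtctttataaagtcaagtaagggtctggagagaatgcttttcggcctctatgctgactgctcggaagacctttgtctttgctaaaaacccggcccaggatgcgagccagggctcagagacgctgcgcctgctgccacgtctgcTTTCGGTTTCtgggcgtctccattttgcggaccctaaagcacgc
An ISRE match thus stood in the window of a gene that rose and of one that was not changed. A match is a description of letters and not a bound site.

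Of the genes that act behind the receptors, Casp8 and Daxx were changed and Fadd and Cflar were not. Casp8, the initiator caspase of this pathway, was at 0.372, 0.391, 0.272, 0.244 and 0.241 FPKM in the NL retinas. In the LD retinas it was at 1.83, 2.49, 2.39, 1.50 and 1.69 FPKM. The ranges were far apart, and LD-4 and LD-6 were again the highest. The mean rose 6.52-fold, from 0.304 ± 0.0718 to 1.98 ± 0.437 FPKM (SD, n = 5 each), with a log2 difference of 2.36 ± 0.19 (SE), a 95% interval of 1.94 to 2.77 and a limma adjusted p of 8.71e-06. The overlapping gene Gm37760 on the same strand had at most 6 reads in a retina. Casp8 (ENSMUSG00000026029) spans chromosome 1, bases 58795374 to 58847503, plus strand.

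Cflar, the competitor of caspase-8, is its neighbour on chromosome 1 on the same strand, with 36489 bases between them. It had 6.10, 5.31, 5.82, 5.42 and 5.84 FPKM in the NL retinas. The LD retinas had 5.93, 6.58, 6.60, 5.83 and 6.03 FPKM. The ranges overlapped, with LD-1, LD-7 and LD-8 inside the NL range. The log2 difference was 0.12 ± 0.06 (SE) with a 95% interval of -0.01 to 0.25 and an adjusted p of 0.175, from 1429 reads or more in each retina, so the upper end of the interval stays far under 2-fold. This value depends on the factor per retina in the authors' library sizes: without it the log2 difference was 0.25 (adjusted p 0.0112) and with TPM 0.22 (adjusted p 0.0166), still not called, and all LD values of Cflar were then above all NL values. Cflar (ENSMUSG00000026031) spans chromosome 1, bases 58711508 to 58758884, plus strand.

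The levels of these neighbours lay closer together in LD than in NL. The ratio of Casp8 to Cflar per length was 0.0535 ± 0.0134 in NL, with a range of 0.0413 to 0.0735, and 0.318 ± 0.0518 in LD, with a range of 0.258 to 0.378 (SD, n = 5 each). The log2 difference of this ratio was 2.59, with a two-sided exact permutation p of 0.00794, the smallest that 5 against 5 retinas can give, and 0.0119 after adjustment over the 3 ratios. For Fas against Cflar the ratio went from 0.0357 ± 0.0102 to 0.266 ± 0.0699, a log2 difference of 2.91 with the same exact p values. Casp8 and Fas were already far apart between the groups while Cflar hardly moved, so both ratios had to separate. Their p values restate the rises of Casp8 and Fas and are no separate evidence. Casp8 remained under Cflar in every LD retina. These are transcript ratios summed over all isoforms of a gene, and long and short Cflar forms were not separated.

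Fadd, the adaptor between receptor and caspase, did not overlap between the groups but missed the threshold. It was at 1.79, 1.56, 1.62, 1.57 and 1.69 FPKM in the NL retinas and at 1.89, 2.24, 2.24, 2.00 and 2.44 FPKM in the LD retinas. Each LD value was above each NL value, with LD-1 closest to NL-1. The mean was 1.32-fold higher, 1.64 ± 0.0950 against 2.16 ± 0.217 FPKM (SD, n = 5 each), and the log2 difference of 0.37 ± 0.09 (SE) had an adjusted p of 0.0135, just above 0.01. Without the factor per retina in the authors' library sizes it was 0.50 with an adjusted p of 0.00251, under 2-fold. The antisense gene Faddos had at most 2 reads in a retina. Fadd (ENSMUSG00000031077) spans chromosome 7, bases 144577318 to 144582463, minus strand.

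Daxx, a histone chaperone first described as a protein that binds the death domain of FAS, was the most abundant of the 10 genes in both groups. The NL retinas lay close together at 13.6, 12.5, 12.7, 12.6 and 13.0 FPKM. The LD retinas spread over 20.1, 39.3, 35.0, 22.1 and 34.9 FPKM. LD-4, LD-6 and LD-8 formed a higher set and LD-1 and LD-7 a lower one, with both above NL. The mean rose 2.35-fold, from 12.9 ± 0.448 to 30.3 ± 8.57 FPKM (SD, n = 5 each), with a log2 difference of 1.18 ± 0.17 (SE), a 95% interval of 0.79 to 1.56 and a limma adjusted p of 5.87e-04. Daxx (ENSMUSG00000002307) spans chromosome 17, bases 33909414 to 33915589, plus strand.

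Per length, the order of mean levels in NL was Daxx, Cflar, Tnfrsf12a, Tnfrsf1a, Fadd, Tnfrsf10b, Casp8, Fas, Tnfrsf1b and Tnf. The ranges of Tnfrsf12a and Tnfrsf1a overlapped, as did those of neighbours from Tnfrsf10b to Tnfrsf1b. In LD the order was Daxx, Tnfrsf12a, Tnfrsf1a, Cflar, Fadd, Casp8, Fas, Tnfrsf10b, Tnfrsf1b and Tnf. There the ranges overlapped between Daxx and Tnfrsf12a, Tnfrsf12a and Tnfrsf1a, Fadd and Casp8, Casp8 and Fas, and Tnfrsf10b and Tnfrsf1b. Cflar thus went from above both Tnfrsf12a and Tnfrsf1a in NL to below both in LD, and Casp8 and Fas from a mean below that of Tnfrsf10b to a range wholly above it.

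The LD retinas did not differ from each other in the same way for all 10 genes. LD-4 and LD-6 were both above LD-1 and LD-7 in 7 genes, Tnfrsf1a, Tnfrsf12a, Fas, Fadd, Daxx, Casp8 and Cflar, and were the 2 highest in 5 of them. Tnf had the opposite order, with LD-4 and LD-6 below LD-1 and LD-7. Over all genes too, reads differed most between these pairs, with a chi-square per gene of 31.3 to 38.5. The share of all genes with either order was not counted, so these counts cannot be read as particular to the 10 genes. The coefficient of variation within LD ran from 5.97% for Cflar to 48.2% for Tnf.

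Marker levels moved with this split. The summed level of 11 rod markers was 1727 and 1839 FPKM in LD-4 and LD-6, against 3282, 2767 and 3270.3 FPKM in LD-1, LD-7 and LD-8. In NL it was 10663 to 12964 FPKM, and 11 of 11 rod markers were changed and lower in LD, with none at 0. The microglia and macrophage sum was 109 and 111 FPKM in LD-4 and LD-6, below the 168 and 149 FPKM of LD-1 and LD-7. Cone markers, 4 of 8 changed and lower, summed to 55.2 and 64.1 FPKM in LD-4 and LD-6 against 140 to 180 FPKM in LD-1, LD-7 and LD-8 and 321 to 498 FPKM in NL. Endothelial markers, 0 of 7 changed, were higher in this pair, at 91.7 and 91.0 FPKM against 56.4 to 59.4 FPKM in LD-1, LD-7 and LD-8 and 40.7 to 51.9 FPKM in NL. Bipolar markers, 0 of 8 changed, were also higher in it, at 423 and 429 FPKM against 318 to 366 FPKM in LD-1, LD-7 and LD-8, with 364 to 426 FPKM in NL. Müller glia markers, 1 of 8 changed and lower, summed to 1021 and 1118 FPKM in the pair against 786 to 893 FPKM in LD-1, LD-7 and LD-8 and 1385 to 1614 FPKM in NL. The lower sum in LD was mainly that of the changed marker Glul, with means of 711 FPKM in NL and 165 FPKM in LD. The median log2 difference of the 8 markers was 0.04, so the sum does not stand for the list. Xist, a transcript of female cells, was above 1 FPKM in LD-4 and LD-6 and in 2 NL retinas, NL-4 and NL-8. The part of cell composition and sex in the levels of the 10 genes was not tested, apart from a fit with Xist as a covariate, in which the same number of the 10 genes, 7, was changed.

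**Figure D3:**
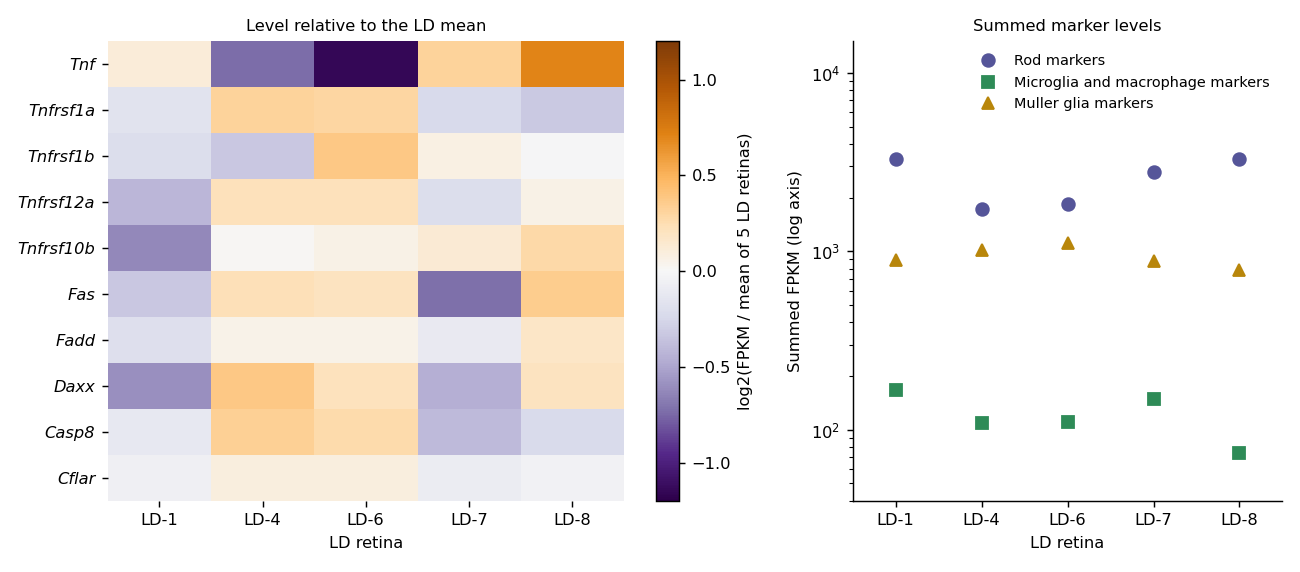
Left, the level of each of the 10 genes in each LD retina relative to the mean of the 5 LD retinas (colour, log2 scale), and right, the summed FPKM (log axis) of rod, microglia and macrophage, and Müller glia markers in the same retinas. LD-4 and LD-6 are above LD-1 and LD-7 in 7 rows and below them in the row of Tnf, and have the lowest rod sums, 1727 and 1839 FPKM.

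The rest of the pathway was described with 6 lists of genes, and the backgrounds of 4.13% changed and higher and 2.37% changed and lower hold for each. Of 17 other TNF superfamily ligands, 10 were tested and 0 were changed in either direction, with a median log2 difference of 0.30. The lymphotoxin gene Lta, which lies beside Tnf in the genome and was named for that reason, went from 0.133 ± 0.0877 to 0.277 ± 0.0628 FPKM with an adjusted p of 0.0582. Of 23 other receptors, 19 were tested, and 3 were changed and higher and 0 lower, with a median of 0.46. Ltbr, the lymphotoxin beta receptor, rose from 2.96 ± 0.398 to 11.9 ± 1.87 FPKM, a log2 difference of 1.96 ± 0.13 (SE) with an adjusted p of 2.59e-06. Eda2r, the ectodysplasin A2 receptor and a known p53 target, rose from 0.0664 ± 0.0656 to 0.876 ± 0.125 FPKM, a log2 difference of 2.62 ± 0.26 (SE) with an adjusted p of 3.77e-05. The other changed receptor, Tnfrsf14, reached 0.387 FPKM and was below the level set for naming.

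Of 27 adaptors, kinases and ubiquitin enzymes next to the receptors, 26 were tested, and 2 were changed and higher and 2 lower, with a median log2 difference of 0.02. These counts are close to the background, and most of the list was not changed. Ripk1, the kinase that joins the complex at Tnfrsf1a, rose from 1.18 ± 0.206 to 3.44 ± 0.380 FPKM, a log2 difference of 1.48 with an adjusted p of 1.49e-05. Birc3, a ubiquitin ligase that limits cell death at this complex, rose from 0.109 ± 0.0366 to 0.511 ± 0.0693 FPKM, a log2 difference of 1.56 with an adjusted p of 1.15e-04. Xiap, an inhibitor of caspases, fell from 51.9 ± 1.68 to 20.8 ± 1.60 FPKM, a log2 difference of -1.32 with an adjusted p of 8.97e-08. Tnfaip3, the ubiquitin-editing enzyme A20 that limits NF-kappaB signalling, fell from 41.5 ± 6.55 to 8.35 ± 1.67 FPKM, a log2 difference of -2.30 with an adjusted p of 1.57e-06. Both genes that fell were the abundant ones in NL, while both that rose began at or under 1.18 FPKM. Rod markers fell in the same retinas, which does not show by itself that rods were lost. The study saw no obvious degeneration of the retina after this length of exposure. The part of rods, by number or by RNA per cell, in the fall of Xiap and Tnfaip3 was not tested.

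Among 9 other genes of the death-inducing complex and its regulators, all tested, 1 was changed and higher and 1 lower, with a median of -0.08. Bid, which carries the caspase-8 signal to mitochondria, rose from 0.839 ± 0.0778 to 1.83 ± 0.160 FPKM, a log2 difference of 1.04 with an adjusted p of 6.60e-05. Faim, which inhibits death by Fas, fell from 21.4 ± 1.22 to 7.61 ± 1.29 FPKM, a log2 difference of -1.49 with an adjusted p of 3.64e-06. None of 6 genes of TNF shedding was changed, with a median of 0.71. Of these 6, Rhbdf2 and Frmd8, which carry the sheddase Adam17 to the surface, had adjusted p values of 0.00472 and 6.93e-04 under 2-fold, while Adam17 itself was at 5.15 and 5.32 FPKM.

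Of 25 transcripts known to be induced by TNF through NF-kappaB in other cells, 21 were tested, and 12 were changed and higher and 1 lower, with a median of 1.56. Bcl3, an NF-kappaB cofactor, rose from 0.448 ± 0.176 to 21.4 ± 10.9 FPKM, a log2 difference of 5.21 with an adjusted p of 3.13e-06. The chemokine genes Ccl2 and Cxcl10 rose from 0.219 ± 0.253 to 16.0 ± 5.91 FPKM and from 0.0563 ± 0.0645 to 5.03 ± 3.10 FPKM, with log2 differences of 5.85 and 4.94 and adjusted p values of 6.05e-06 and 7.30e-06. Icam1, an adhesion molecule for leukocytes, rose from 0.239 ± 0.121 to 1.86 ± 0.570 FPKM, a log2 difference of 2.55 with an adjusted p of 9.73e-05. Tnfaip2 rose to 0.810 ± 0.297 FPKM, with an adjusted p of 9.58e-05. Cxcl1, a neutrophil chemokine, was at 0.0242 ± 0.0177 FPKM in NL and 0.664 ± 0.439 FPKM in LD, but like Tnf it entered the test through its LD values alone and so had to differ. Without it 11 of 20 were changed and higher and 1 lower, with a median of 1.43. The 1 that fell was Tnfaip3, which like Birc3 is also counted among the adaptors. These genes respond to other signals as well, several are expressed by the microglia and macrophages whose markers rose, and whether TNF acted on them was not tested.

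**Figure D4:**
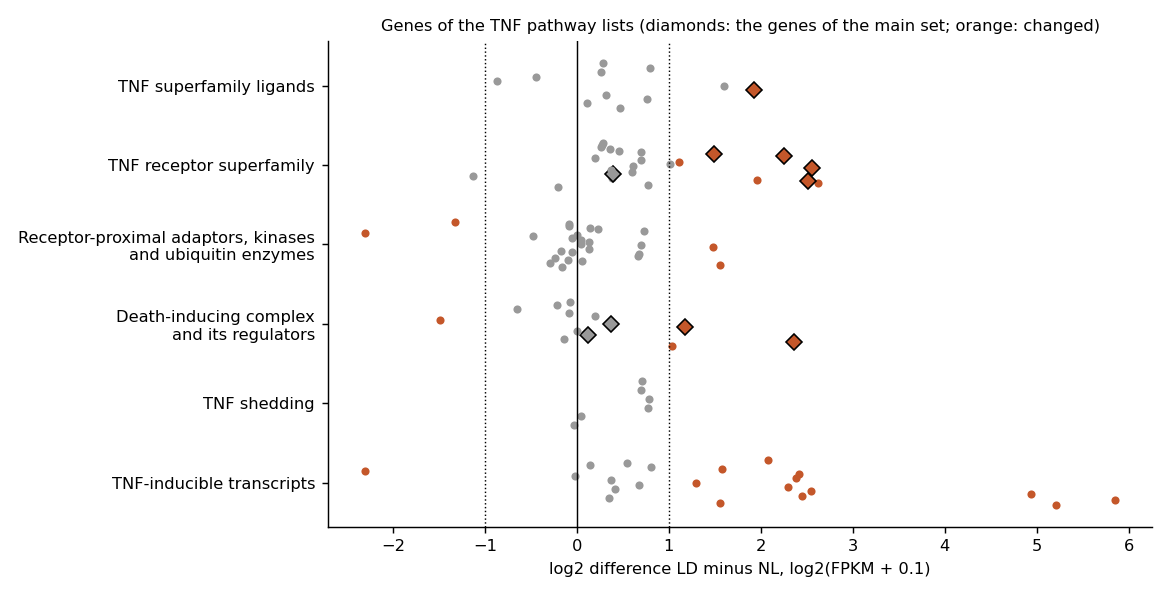
Log2 difference LD minus NL on the log2(FPKM + 0.1) scale (horizontal axis) of every tested gene of 6 pathway lists (rows), with the 10 genes as diamonds, changed genes in orange and the 2-fold limits dotted. Changed genes lie on the right among receptors, on both sides among adaptors and the death-inducing complex, and on the right but for Tnfaip3 among TNF-inducible transcripts, and Tnf is the 1 orange point among the ligands.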

How the data were processed

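Retinas were grouped by the labels (NL or LD, n = 5 each). Per the submitters' notes and the study, RNA was taken with Trizol and Illumina TruSeq libraries were sequenced as paired reads, and Bowtie2 2.0.6, TopHat2 2.0.9 and the build mm8 are named. The counting program is not given in the sources used here. The authors deposited 1 table of FPKM values per gene and retina, with gene positions, and 53585 of 54495 identifiers found in GENCODE M21 (GRCm38) have the same position there, so positions are given on GRCm38. FPKM times gene length came in whole multiples of 1 read for 100% of the values (tolerance 0.001 reads), and the authors' library sizes held a factor per retina of 0.951 to 0.968 in NL and 1.04 to 1.07 in LD.

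Here, 24508 genes reaching 0.1 FPKM in 5 or more retinas were taken as log2(FPKM + 0.1), a scale that understates changes of low genes. They were fitted by limma-trend (limma 3.58.1, R 4.3.3) without a block, and p-values were adjusted by the Benjamini-Hochberg method. The thresholds were those of the study. For ratios, all 252 regroupings entered an exact two-sided permutation test (scipy 1.17.1, numpy 2.4.6, pandas 2.3.3, Python 3.11.15, matplotlib 3.10.9). All 10 genes are named, and of the other pathway genes at most 6 changed genes per list, those reaching a group mean of 0.5 FPKM, with exceptions stated. The 10 genes and the lists were chosen with earlier results of these data known. Alternatives (24) changed the constant, filter, scaling, trend, test, threshold, block and retinas included. Floors and reads cover counting error only.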

Additional observations from a re-analysis of the deposited data

How the results depend on the processing

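The number of the 10 genes changed, 7 in the report, was 7 in each of the 10 fits that left out 1 retina (all genes changed 1379 to 1603, against 1595) and also 7 with 0.01 FPKM added, no filter, TPM, quantile normalization, no factor per retina, no trend, limma-voom on recovered reads and Xist as a covariate. With 1 FPKM added it was 5 (816 of all genes), with a filter of 1 FPKM in 5 retinas 4, since fewer of the 10 were then tested, and with an adjusted p under 0.05 and no minimum fold 8 (6818 of all genes), Fadd being the added gene. With the close pairs averaged it was 6 (1076 of all genes), Tnfrsf1b being lost. Same-numbered NL and LD retinas did not deviate together (r of -0.09 to 0.07 over 4 numbers). This gave no sign that the numbers pair them, but so few pairs cannot exclude it. In the 8 retinas of these numbers, 6 of the 10 genes were changed without the replicate block (1182 of all genes) and 5 with the replicate block (808 of all genes), where Tnfrsf1b (1.44, adjusted p 0.0458) and Daxx (1.11, adjusted p 0.0186) missed the threshold. Without the factor per retina the median log2 difference of all genes moved from -0.01 to 0.11. No direction of the 10 genes reversed under any of the 24 alternatives. Tnf rests on 5 to 18 reads per LD retina and Fas on 5 to 11 reads per NL retina, which limits the precision of their sizes.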
